A study of Mus musculus with 6 samples.

Results

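The 5 genes described here are Fth1, Ftl1, Hmox1, Slc40a1 and Tfrc, which were chosen by name as the ferritin chains and main iron-handling genes among the 32285 genes of the count matrix. Their UMIs (counts of distinct RNA molecules) were read by cluster, library and diet in 364 cells from the sciatic nerve of C57BL6/J mice aged 23 weeks. SD and HFD mice were compared, and all libraries came from nerves dissociated with trypsin and collagenase and enriched with magnetic beads against O4, a lipid antigen of the Schwann cell lineage. The SD group held 3 libraries with 201 cells and the HFD group 2 libraries with 163 cells, and HFD replicate 3 was not analysed here. No label states how long the diets were fed, whether nerves were pooled, or that each library is another animal. The p-values therefore measure only the spread between these libraries, which may be technical.

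Ferritin is the iron store of the cytosol. It is a hollow shell built from heavy chains (Fth1), which carry the ferroxidase site that oxidises ferrous iron, and light chains (Ftl1), which favour mineral formation inside the shell. Tissue macrophages take up haem from red cells, open it with haem oxygenase (Hmox1), and return iron to the outside through ferroportin (Slc40a1). Most cells take up transferrin-bound iron through the transferrin receptor (Tfrc), and myelinating glia need iron for the enzymes of lipid synthesis. When iron is scarce, the iron regulatory proteins bind hairpins called iron-responsive elements. Binding in a 5′ UTR blocks translation, whereas binding in the Tfrc 3′ UTR protects the RNA from decay.

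The elements are shown because those in a 5′ UTR act on translation, which RNA counts do not read, while those of Tfrc act on RNA decay. Other control of these genes is not read from them. Sequences were read from GENCODE M21 transcripts on GRCm38, 5′ to 3′ on the gene's strand, with the hairpin loop CAGTG in capitals. The motif searched was CNNNNNCAGTGN, on the transcript strand only.
Fth1, 5′ UTR, chr19:9982731-9982759, plus strand: tttcctgcttcaaCAGTGcttgaacggaa
Ftl1, 5′ UTR, chr7:45459780-45459808, minus strand: tgtcttgcttcaaCAGTGtttgaacggaa
Slc40a1, 5′ UTR, chr1:45925466-45925494, minus strand: ccaacttcagctaCAGTGttagctaagtt
Tfrc, 3′ UTR, chr16:32631218-32631246, plus strand: taattatcggaagCAGTGccttccataat
Tfrc, 3′ UTR, chr16:32631709-32631737, plus strand: taattatcgggaaCAGTGtttcccataat

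The Tfrc 3′ UTR held 5 matches, of which 2 are printed, and no match was found in the UTRs of Hmox1. The Fth1 3′ UTR held 1 further match. The motif alone is not rare: 12.4% of 20711 genes held it in a 5′ UTR and 35.9% of 20997 genes in a 3′ UTR, so a match is a description of letters and not a site. The Ftl1 element was identical, base for base, in Ftl1-ps1 on chromosome 13. The Ftl1 and Ftl1-ps1 transcripts were identical at 99.6% of their aligned bases, with 4 mismatches, so the counting could split reads between them. Ftl1 values are uncertain to that extent. Ftl1-ps1 held 117 UMIs against 4378 for Ftl1.

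The clusters are the authors' deposited ones and are called here by their numbers. Cluster 0, named Macrophages by the authors, had 143 cells and UMIs of all 12 macrophage markers, such as Csf1r and C1qa, at a summed 34136 to 45953 CPM (UMIs per 1000000 UMIs of that cluster and library). Cluster 2 had 60 cells and the authors' name SCP, and held all 12 myelin genes at 33663 to 59439 CPM with the macrophage markers at 48.2 to 134 CPM. It is used here as the myelin-expressing cells. Cluster 1, named mySC, had 92 cells and was mixed. Its myelin genes reached 28751 to 68343 CPM in the SD libraries but 7910 and 7976 CPM in the HFD libraries, where neutrophil markers stood at 28756 and 44550 CPM and 1 HFD cell carried haemoglobin transcripts. The 45 cells of cluster 3 had a median of 261 UMIs, and 36 of their barcodes shared the same last 9 bases. The 24 cells of cluster 4, named nmSC, held fibroblast markers at 19089 to 68051 CPM, and endothelial markers at 0 to 3238 CPM. The 7 nonmyelinating Schwann markers summed to 81.3 to 584 CPM there, with 3 of them seen and Ncam1, L1cam, Chl1 and Gfap at 0. Libraries held 37744 to 349450 UMIs and 40 to 106 cells, with cluster 0 making up 20% to 70.2% of the cells. No cell barcode was shared between libraries.

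Both ferritin chains were among the most abundant transcripts of the nerve preparation. Fth1 had 5128 UMIs in 285 cells, the 15th highest total of all genes, and Ftl1 had 4378 UMIs in 247 cells, the 23rd highest. The other 3 members were sparse. Hmox1 had 83 UMIs in 37 cells, Tfrc 18 UMIs in 10 cells and Slc40a1 11 UMIs in 6 cells.

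Fth1 was high in macrophages and in both myelin-containing clusters. In cluster 0 its level was 6921, 5127 and 5186 CPM in SD replicates 1 to 3, and 4068 and 4628 CPM in HFD replicates 1 and 2 (mean 5186 ± 1069, SD, n = 5). In cluster 2 it was 3511, 1880 and 5062 CPM in SD and 1202 and 2832 CPM in HFD (2897 ± 1498, SD, n = 5). Cluster 0 stood above cluster 2 in every library, but by unequal amounts: the fold was 1.97, 2.73 and 1.02 in SD and 3.38 and 1.63 in HFD. In cluster 1 the level was 5372, 6143 and 14829 CPM in SD and 3574 and 9161 CPM in HFD (7816 ± 4409, SD, n = 5), where the highest value came from 46 UMIs in 7 cells. Cluster 4 lay at 2870 and 3065 CPM in SD replicates 1 and 2 and at 5647 and 1855 CPM in HFD. In the order of means, cluster 1 was followed by clusters 0, 4, 2 and 3, and the ranges of clusters 1, 0, 4 and 2 all overlapped one another. Cluster 3 was lowest by mean (423 ± 584 CPM, SD, n = 3), but its place is uncertain. It held 767 and 5607 UMIs in SD replicates 2 and 3, where 3 counts would give 3911 and 535 CPM. SD replicate 1 and HFD replicate 1, left out with 2 cells each, stood at 239 and 3739 CPM.

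Ftl1, the light chain, was far more restricted to the macrophages. In cluster 0 it stood at 6384, 5581 and 6634 CPM in SD and 5593 and 6615 CPM in HFD, a narrow band (6161 ± 533, SD, n = 5). In cluster 2 it stood at 679, 306 and 1012 CPM in SD and 801 and 530 CPM in HFD (666 ± 268, SD, n = 5). These bands did not approach each other, and cluster 0 exceeded cluster 2 by 6.55 to 18.2-fold with a median over libraries of 9.40-fold, against a median of 1.97-fold for Fth1. Among all genes Ftl1 ranked 13th by mean level in cluster 0 and 157th in cluster 2, whereas Fth1 ranked 18th and 22nd. Cluster 0 held 80.5% of all Ftl1 UMIs and 57.2% of all Fth1 UMIs, while it held 50.4% of the UMIs of all genes. Ftl1 in cluster 4 was 1296 ± 468 CPM (SD, n = 4). In cluster 1 it was 1337, 1414 and 967 CPM in SD and 1875 and 6517 CPM in HFD. The last value stood apart, and 226 of the 507 Ftl1 UMIs of cluster 1 came from 1 cell of HFD replicate 2, which also held 265 of its 1064 Fth1 UMIs. By mean, cluster 0 was followed by clusters 1, 4, 3 and 2, and the ranges of neighbours overlapped except where cluster 0 met cluster 1 without HFD replicate 2. The place of cluster 3 is uncertain here too, since its SD replicate 2 stood at 1304 CPM on 1 UMI.

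**Figure D1:**
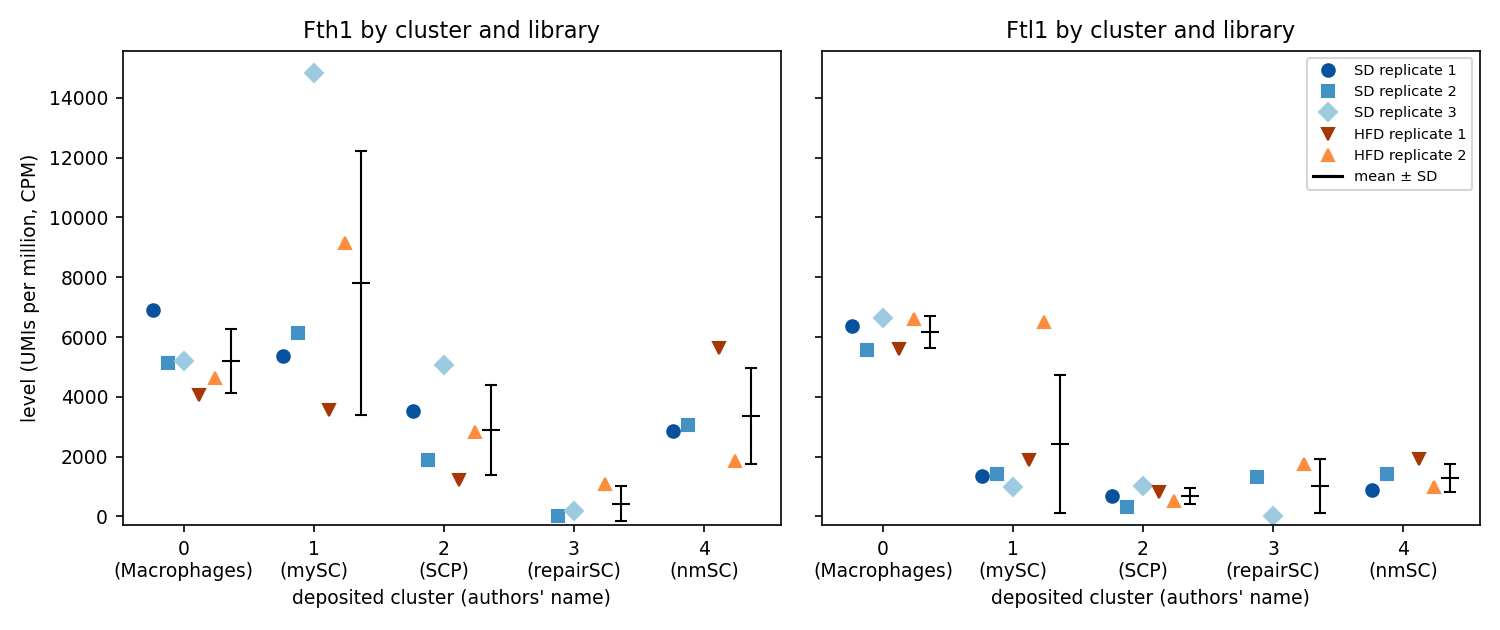
Level of Fth1 (left) and Ftl1 (right) in CPM for each deposited cluster, one symbol per library with at least 3 cells, with the mean ± SD over libraries as black bars. Ftl1 lies between 5581 and 6634 CPM in cluster 0 and between 306 and 1012 CPM in cluster 2, whereas the Fth1 ranges of the same clusters, 4068 to 6921 and 1202 to 5062 CPM, overlap.

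The share of cells with a ferritin UMI was set at equal depth, since deeper cells show more genes. With each cell of 500 or more UMIs taken at 500, a Fth1 UMI was expected in 88.5% of cells of cluster 0, 79.4% of cluster 1 and 60.2% of cluster 2. For Ftl1 the shares were 92.2%, 43.8% and 23.2%. Unthinned, Ftl1 was seen in 94.4% of cluster 0 cells and 70.0% of cluster 2 cells, with median depths of 1064 and 4230 UMIs. No cell type of the nerve is known to lack ferritin, so the macrophage markers served as the measure of free RNA. Their summed level in cluster 2 had a median of 102 CPM against 36181 CPM in cluster 0, and Cd163, a macrophage scavenger receptor for haemoglobin, had 321 UMIs in cluster 0 and 0 in cluster 2.

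The balance of the chains was then compared between macrophages and myelin-expressing cells, since a ratio within a sum needs no scaling between libraries. Each UMI marks 1 molecule captured at its 3′ end, so the chains were not divided by transcript length, which is 929 bases for Fth1-201 and 968 for Ftl1-201. In cluster 0 heavy-chain UMIs made up 52.0%, 47.9% and 43.9% of ferritin UMIs in SD replicates 1 to 3 and 42.1% and 41.2% in HFD replicates 1 and 2 (45.4% ± 4.5, SD, n = 5). In cluster 2 they made up 83.8%, 86.0% and 83.3% in SD, and 60.0% and 84.3% in HFD (79.5% ± 10.9, SD, n = 5). The groups of values did not overlap, and the lowest value of cluster 2, from HFD replicate 1, rested on 18 of 30 UMIs in 3 cells (95% Clopper-Pearson interval 40.6% to 77.3%). Pooled over libraries, there were 0.83 Fth1 UMIs per Ftl1 UMI in cluster 0 (2933 and 3525) and 5.00 in cluster 2 (735 and 147).

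On the log2 scale the Fth1 to Ftl1 ratio of cluster 2 exceeded that of cluster 0 by 2.24, 2.70 and 2.65 in SD and by 1.02 and 2.92 in HFD. The mean difference was 2.31 (SD 0.76, n = 5 libraries), positive in 5 of 5. The two-sided exact sign-flip permutation test gave p = 0.0625, the smallest that 5 libraries allow, or 0.188 after Benjamini-Hochberg adjustment over 3 tests of the ratio. It therefore did not pass 0.05, and the clusters had been drawn from the expression of these same cells, so the p describes only how alike the libraries were. The difference was 2.63 without HFD replicate 1 and 2.06 ± 0.67 (SD, n = 5) with clusters 1 and 2 summed. With the median cell of each cluster in place of the sum it was 1.57, positive in 4 of 5 libraries (exact p = 0.125). Cells with at least 5 ferritin UMIs entered that median. The exception was SD replicate 3, at 1.94 in cluster 0 and 1.82 in cluster 2, where only 2 of its 8 cells of cluster 0 entered. Without that library the median-cell difference was 2.00, positive in 4 of 4 (exact p = 0.125, the smallest that 4 libraries allow).

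**Figure D2:**
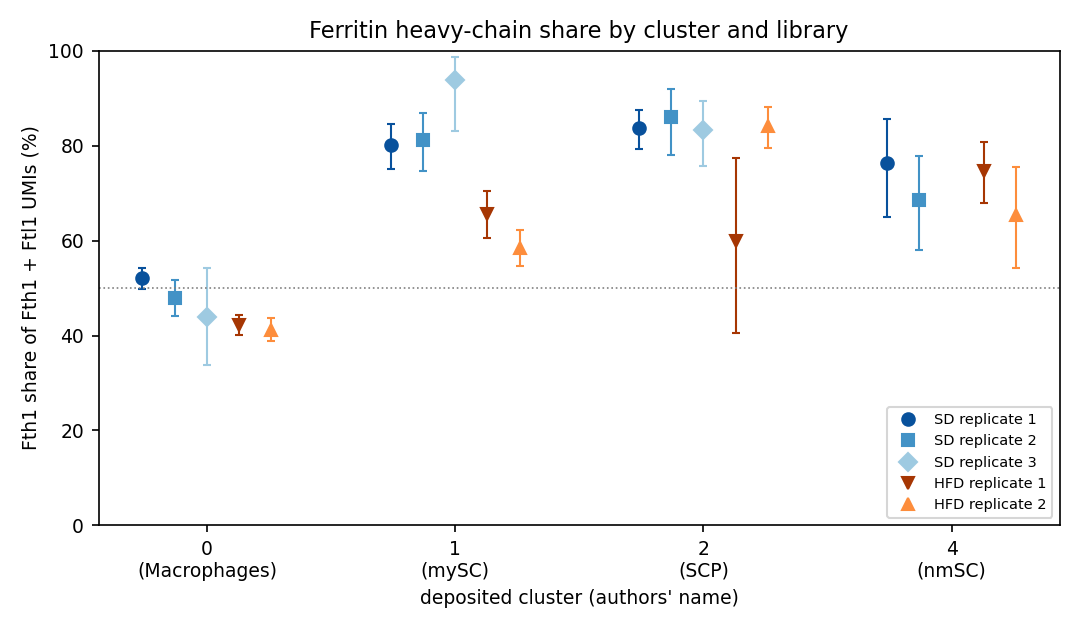
Fth1 share of Fth1 plus Ftl1 UMIs, in percent, by deposited cluster, one symbol per library with at least 3 cells and 10 ferritin UMIs, with 95% Clopper-Pearson intervals that cover counting error only. The dotted line marks equal chains. Cluster 0 lies between 41.2% and 52.0%, cluster 2 between 60.0% and 86.0%, and cluster 4 between 65.5% and 76.4%.

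The same balance was seen in single cells, which are not replicates and are described without a test. Of 33 cells of cluster 2 with at least 10 ferritin UMIs, all 33 held more Fth1 than Ftl1 UMIs, with a median heavy-chain share of 83.3% and a range of 52.6% to 100%. Of 97 such cells of cluster 0, 37 did, with a median of 47.9% and a middle range of 31.8% to 58.0%. The macrophage cells spread widely: in the 4 libraries with 9 or more such cells the median ran from 32.7% in HFD replicate 2 to 53.7% in SD replicate 1. The 2 cells of SD replicate 3 were at 28.2% and 100%. Intervals and shares of UMIs cover counting error only.

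**Figure D3:**
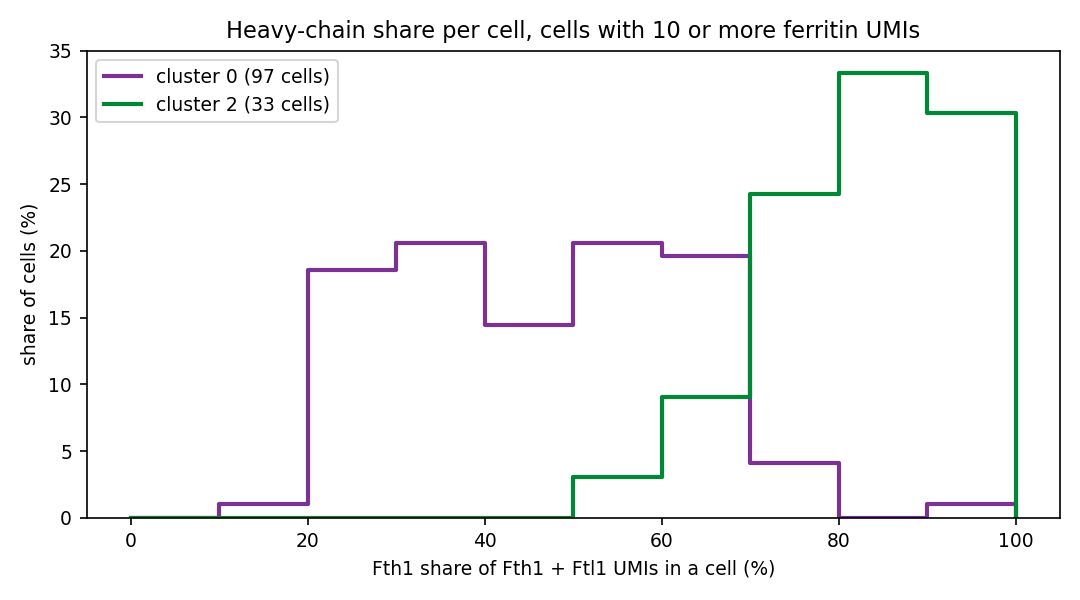
Distribution of the Fth1 share of ferritin UMIs over single cells with at least 10 ferritin UMIs, in steps of 10 percentage points, for 97 cells of cluster 0 and 33 cells of cluster 2. The cluster 2 cells lie at or above 52.6%, and the cluster 0 cells spread from 18.2% to 100% with a median of 47.9%.

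Cluster 1 was mixed in its chain balance as well. In cluster 1 heavy-chain UMIs made up 80.1%, 81.3% and 93.9% in SD and 65.6% and 58.4% in HFD. In SD replicate 1 the share was 50.7% in the 5 cells of cluster 1 with a UMI of C1qa, C1qb, C1qc, Cd74 or Csf1r and 89.5% in the 20 cells without one. In HFD replicate 2 it was 56.8% in 4 such cells and 82.2% in the other 12. The order was opposite in HFD replicate 1, at 71.3% in 3 cells with such a UMI and 58.8% in 5 without. These 8 cells included the cell with haemoglobin transcripts and 2 neutrophil-like cells, defined by over 1% of UMIs from S100a8 and S100a9. The 5 neutrophil-like cells, all from HFD libraries, held 280 Fth1 and 138 Ftl1 UMIs, a heavy-chain share of 67.0% (95% interval 62.2% to 71.5%). In cluster 4 the share was 76.4% and 68.5% in SD and 74.7% and 65.5% in HFD (71.3% ± 5.1, SD, n = 4).

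When cells with those macrophage UMIs, or with neutrophil, haemoglobin or mast cell transcripts, were left out of clusters 1 and 2, the log2 ratio was 2.66, 2.23 and 2.63 in SD and 0.50 and 2.30 in HFD. The difference from cluster 0 was then 2.33. The low value of HFD replicate 1 rested on 6 cells.

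Hmox1, which opens the haem ring and releases its iron, was sparse, and most of its UMIs came from the macrophages of the HFD libraries. Of its 83 UMIs, 67 were in cluster 0, a share of 80.7% where that cluster held 50.4% of the UMIs of all genes. Of these 67, 54 were from HFD, 37 of them from HFD replicate 1. For all genes, the HFD libraries held 368663 of the 582071 UMIs of cluster 0. In the pooled SD cells cluster 0 stood at 60.9 CPM (13 UMIs) and cluster 1 at 57.9 CPM (4 UMIs). The level in cluster 0 was 83.6, 16.2 and 0 CPM in SD replicates 1 to 3 and 165 and 117 CPM in HFD replicates 1 and 2. Both HFD libraries were above all 3 SD libraries. Among the libraries fitted in cluster 0, which leave out SD replicate 3, 37.6% of the 2108 genes tested did not overlap between the diets. SD replicate 3 had 8291 UMIs in cluster 0, so that 0 counts there allow up to 362 CPM. A Hmox1 UMI was seen in 17.5% of cells of cluster 0 (median depth 1064 UMIs) and 8.33% of cells of cluster 2 (median depth 4230). At 500 UMIs per cell the expected shares were 5.37% and 1.12%. The highest cell, in HFD replicate 1, held 12 UMIs. In clusters 1 and 2 each library had 0 to 3 UMIs, and cluster 4 had none in 24 cells, which allows a UMI in up to 12.5% of such cells and sets no limit on cells that express the gene.

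Slc40a1, the ferroportin gene, was close to the detection limit, also in the macrophages. Cluster 0 held 5 UMIs in 4 cells, with 1 UMI in SD replicate 1 and 4 in HFD replicate 1. The other 6 UMIs were in 2 neutrophil-like cells of HFD replicate 1 that the authors placed in cluster 3. Clusters 1, 2 and 4 held none. A count of 0 allows a pooled level of up to 16.6 CPM in cluster 1 and 12.02 CPM in cluster 2. It sets no limit on the share of cells that express the gene, since a UMI was seen in only 2.80% of the cells of cluster 0.

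Tfrc, which imports transferrin-bound iron, had 18 UMIs. Cluster 0 held 10 in 5 cells of HFD replicate 1 and 1 in HFD replicate 2, against 0 of 213408 UMIs in the SD libraries. Pooled HFD cells stood at 29.8 CPM, at least 2.12-fold higher than the 14.1 CPM that 3 counts over the pooled SD cells would give. That bound rested on HFD replicate 1, at 44.7 CPM, since HFD replicate 2 alone stood at 6.90 CPM, under that level. Cluster 2 went the other way, with 5 UMIs in 2 cells of SD replicate 1 and 1 UMI in HFD replicate 2. Most of these UMIs therefore came from 1 library in each cluster, and Tfrc did not reach the expression filter of any fit.

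**Figure D4:**
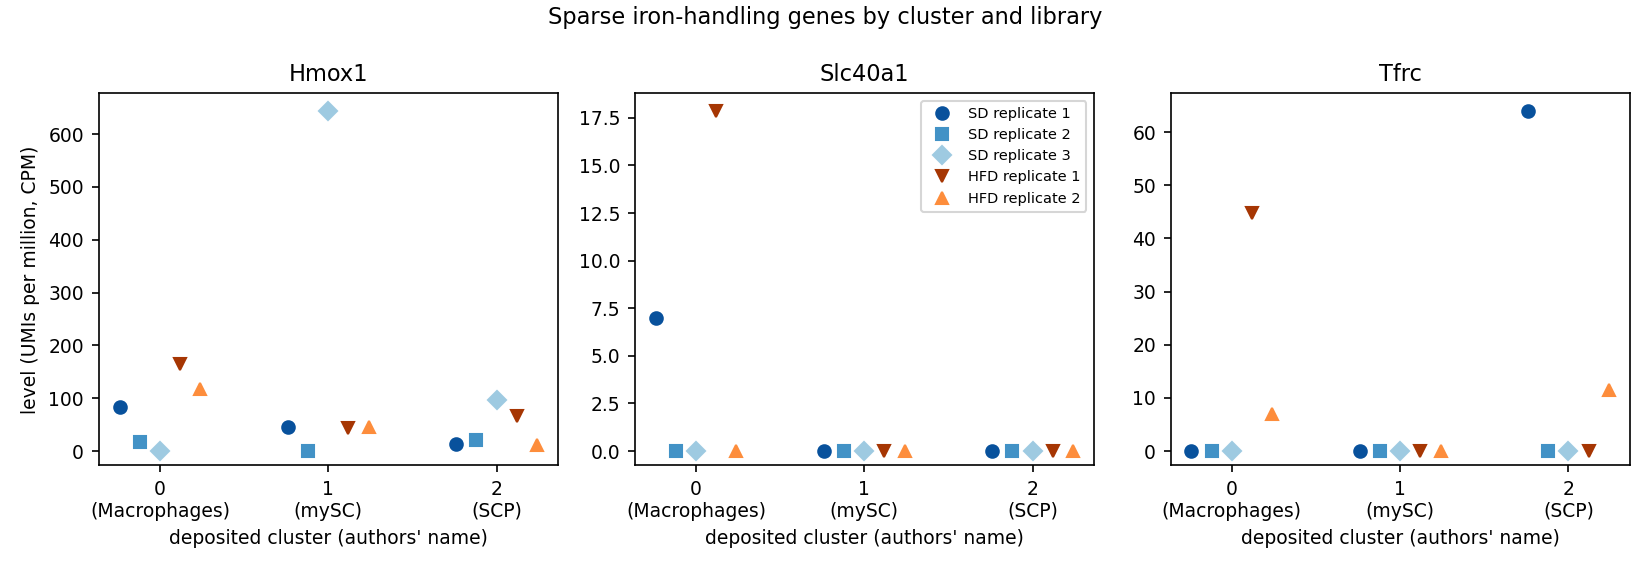
Level of Hmox1, Slc40a1 and Tfrc in CPM (separate linear axes) in clusters 0, 1 and 2, one symbol per library. Hmox1 in cluster 0 is at 165 and 117 CPM in the HFD libraries and at 0 to 83.6 CPM in the SD libraries, and the Hmox1 point at 645 CPM in cluster 1 stands for 2 UMIs.

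The diets were compared on UMIs summed per library, over all cells and within clusters 0, 1 and 2, with edgeR's quasi-likelihood test and Benjamini-Hochberg adjustment over all genes tested. A gene was called at an adjusted p under 0.05. In sums of cells, fewer cells of a type and less RNA per cell cannot be told apart. No member was called in any of the 4 fits, and 16 to 242 genes a fit had an unadjusted p under 0.05. Slc40a1 and Tfrc passed the expression filter in none, and Hmox1 in those of all cells and cluster 0.

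Over all cells, Fth1 was at 5253, 3948 and 5166 CPM in SD and 3943 and 4371 CPM in HFD, with overlapping diets. The HFD libraries differed by -0.02 ± 0.34 on the log2 scale (SE, edgeR adjusted p = 0.999). Ftl1 was at 3533, 2724 and 2093 CPM in SD and 4261 and 4226 CPM in HFD. Its diets did not overlap, as for 23% of the 5510 genes tested, and the log2 fold change was 0.78 ± 0.38 (edgeR, adjusted p = 0.943). The share of cluster 0 among all UMIs was 48.4%, 39.9% and 22.0% in SD and 64.0% and 45.7% in HFD, with overlapping diets, and its part in the Ftl1 values was not tested. Hmox1 was at 50.6, 12.9 and 106 CPM in SD and 120 and 63.0 CPM in HFD, with overlapping diets. It differed by 1.20 ± 0.74 on the log2 scale (SE, edgeR adjusted p = 0.943). The value was 0.52 without HFD replicate 1, 1.72 without HFD replicate 2 and 0.62 without SD replicate 2. By CPM, the log2 ratio was 1.92 for HFD replicate 1 over SD replicates 1 and 2, and -0.75 for HFD replicate 2 over SD replicate 3. Of the 3 members tested none was called, where 0.0907% of all genes were.

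Within cluster 0 the fit used SD replicates 1 and 2 and both HFD libraries, since SD replicate 3 had under 10 cells there. Fth1 was at 6921 and 5127 CPM in the SD libraries used and at 4068 and 4628 CPM in HFD, so both HFD libraries were lower, a separation shared by 37.6% of the 2108 genes tested. The log2 fold change was -0.53 ± 0.21 (edgeR's quasi-likelihood test across all genes, adjusted p = 0.758). It was -0.23 without SD replicate 1 and -0.78 without SD replicate 2. Ftl1 overlapped between the diets (-0.03 ± 0.19, SE, edgeR adjusted p = 0.981), and Hmox1 differed by 1.19 ± 0.60 (SE, edgeR adjusted p = 0.82) without overlap. The Hmox1 value was 3.08 without SD replicate 1 and 0.66 without SD replicate 2. None of the 3 was called, against 0.0474% of all genes.

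The heavy-chain ratio of the macrophages, taken on summed UMIs, was lower in both HFD libraries than in all 3 SD libraries. The log2 ratio of Fth1 to Ftl1 in cluster 0 was -0.12 ± 0.23 in SD (SD, n = 3) and -0.49 ± 0.04 in HFD (SD, n = 2). The difference of -0.37 did not pass a two-sided exact permutation test over libraries (p = 0.2, adjusted 0.3, where the smallest possible p is 0.1). The library key gives SD replicates 1 and 2 and HFD replicate 1 one project number, and SD replicate 3 and HFD replicate 2 another. These numbers were taken as sequencing runs, which no label or header states. Within the first the difference was -0.46, and within the other it was -0.16. In cluster 2 the log2 ratio was 2.41 ± 0.15 in SD (SD, n = 3) and 1.49 ± 1.30 in HFD (SD, n = 2), a difference of -0.92 (exact permutation p = 0.3, adjusted 0.3). That difference came from 1 library: without HFD replicate 1 it was -0.004, and within the project numbers it was -1.90 and 0.11.

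The largest diet difference of a member in the 4 fits was in cluster 1, the mixed cluster. Ftl1 was higher in both HFD libraries (1875 and 6517 CPM) than in the 3 SD libraries (967 to 1414 CPM), as 36.6% of the 656 genes tested were separated. The log2 fold change was 2.35 ± 0.91 (edgeR, adjusted p = 0.091), and that of Fth1 was 0.43 ± 0.83 (edgeR, adjusted p = 0.748). Neither was called, where 7.93% of genes were and the median log2 fold change of all genes was 0.42. Ftl1 was called with another scaling of the libraries (RLE, 2.55, adjusted p = 0.0494, with a median of all genes of 0.61) and with DESeq2 (2.54, adjusted p = 0.045). Without the cells of neutrophil, haemoglobin or mast cell genes it stood at 1.52 (edgeR, adjusted p = 0.38). That alternative kept the 1 cell of HFD replicate 2 with 226 of the 507 Ftl1 UMIs of cluster 1. The summed macrophage markers of cluster 1 were 8946, 88.4 and 0 CPM in SD and 7808 and 9639 CPM in HFD. The part that cells of other types play in the Ftl1 difference beyond those values was not tested.

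In cluster 2 neither chain was called, and 0% of its 1019 genes were by edgeR or by DESeq2, with 16 at an unadjusted p under 0.05. The log2 fold change was -0.74 ± 0.41 for Fth1 and -0.06 ± 0.61 for Ftl1 (SE, edgeR adjusted p = 1.0 for both), and the diets overlapped for both chains. The Fth1 value was -0.24 without HFD replicate 1, -0.40 without SD replicate 3 and -1.73 without HFD replicate 2. By CPM, Fth1 was lower in HFD than in SD within each project number in clusters 0, 1 and 2, opposite in sign to the TMM-scaled fit of cluster 1. The log2 ratios of CPM were -0.57 and -0.16 in cluster 0, -0.69 and -0.69 in cluster 1 and -1.16 and -0.84 in cluster 2, each project number holding 1 HFD library. All come from the same 5 libraries, and how many other genes keep a single sign in this way was not computed. HFD replicate 1 held 18 Fth1 UMIs in 3 cells of cluster 2. Of its 68264 UMIs in cluster 1, 24932 came from the cell with haemoglobin transcripts. With mitochondrial, haemoglobin and Gm42418 UMIs taken out of the totals, Fth1 in cluster 1 stood at 6494 CPM in HFD replicate 1. That lay between SD replicates 1 and 2, at 6301 and 7681 CPM, so the lower level there depends on the total used.

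A list of 52 other iron genes (uptake, haem handling, iron sensing, oxidative defence) put the members in context, and 51 of them were in the matrix. In cluster 0, 37 of the 51 had a UMI, and in cluster 2, 33 had. The genes named by level are the 5 highest of the list in cluster 0 or in cluster 2. Trf, Cd163 and Blvrb entered only through cluster 0, and Fbxl5, Pcbp1 and Lrp1 only through cluster 2, so that choice bears on their direction. Pcbp1 and Lrp1 had the higher mean in cluster 0 all the same. Macrophages held more Trf, the iron carrier transferrin, at 864 to 1042 CPM in the 5 libraries (926 ± 76, SD) against 0 to 115 CPM in cluster 2, without overlap. Cd163 was at 292 to 1568 CPM in cluster 0 and had no UMI in cluster 2. Blvrb, biliverdin reductase B, was at 321 ± 39 CPM in cluster 0 and 64 ± 82 CPM in cluster 2 (SD, n = 5). Its ranges of 262 to 362 and 0 to 200 CPM did not overlap.

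Fbxl5, the iron-sensing ubiquitin ligase subunit that removes iron regulatory protein 2, had the opposite pattern. It was at 243, 388 and 241 CPM in SD and 534 and 311 CPM in HFD in cluster 2, and at 0 to 89.7 CPM in cluster 0. No library of cluster 0 reached the lowest of cluster 2. Pcbp2, an iron chaperone that delivers iron to ferritin, was at 213 ± 65 CPM in cluster 0 and 316 ± 179 CPM in cluster 2, and Pcbp1, with the same role, at 180 ± 38 and 83 ± 45 CPM (SD, n = 5). Nfe2l2, a regulator of oxidative defence that induces both ferritin chains and Hmox1, was at 211 ± 66 and 110 ± 88 CPM, and Lrp1, a receptor for haem bound to haemopexin, at 138 ± 54 and 82 ± 32 CPM (SD, n = 5). These levels are descriptions, since the clusters were drawn from the same cells.

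**Figure D5:**
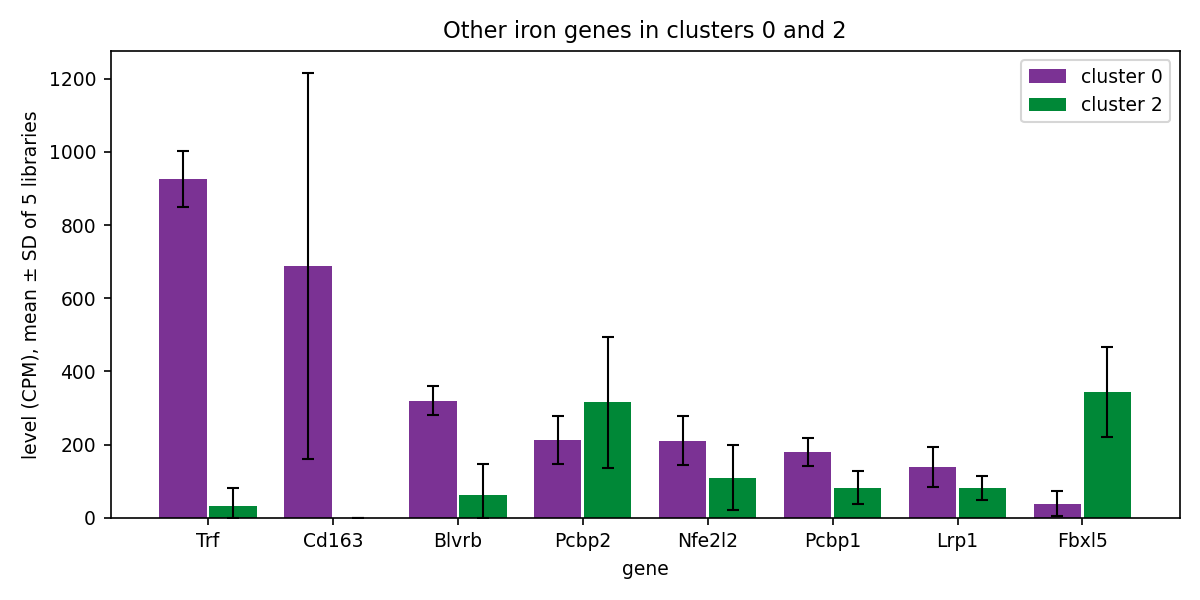
Mean level in CPM of the highest iron-list genes in clusters 0 and 2, with bars of 1 SD over 5 libraries cut at 0 on the lower side. Trf, Cd163 and Blvrb are higher in cluster 0 (926, 689 and 321 CPM) than in cluster 2, and Fbxl5 is higher in cluster 2 (344 against 38 CPM).

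By diet, 22 genes of the list were tested over all cells, with 18 fold changes above 0 and 4 below, a median log2 of 0.58, and 0.02 for all genes. Slc7a11, the cystine importer, was called. It had 131 and 45 UMIs in the HFD libraries and none in SD, which over all cells is at least 43.0-fold higher than 3 counts in the pooled SD cells (edgeR adjusted p = 0.0428). Of the 176 UMIs, 171 were in the neutrophil-like cells. Without those cells it was not called. The next by p were Slc11a1, the phagosomal metal transporter (1.11 ± 0.60, SE), and Blvrb (0.99 ± 0.55, SE), both at edgeR adjusted p = 0.943. In cluster 0, 11 were tested, with 6 above 0 and 5 below, a median of 0.07 and none called. The lowest p there were those of Bach1, the haem-sensing repressor of Hmox1 (0.77 ± 0.58, SE), Pcbp2 (0.40 ± 0.37) and Cd163 (0.45 ± 0.43). In cluster 1, Slc7a11 was called and Slc48a1, a haem transporter, was not (-1.62 ± 1.16, SE, edgeR adjusted p = 0.401). In cluster 2, Fbxl5 (0.35 ± 0.60, SE) and Pcbp2 (-0.15 ± 0.63, SE) were tested and not called.

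The genes whose levels followed those of the ferritin chains most closely differed between the chains. Likeness was the Pearson correlation of log2 (CPM + 10) over 21 sums of a library and cluster, among 758 genes with at least 200 UMIs. For Ftl1 the 5 nearest were the ribosomal genes Fau (r = 0.98), Rpl26, Rpl35a, Rpl39 and Rps24 (r = 0.95). For Fth1 they were Myl6 (r = 0.88), Anxa5, Rplp1, Rplp0 and Gapdh (r = 0.84). The chains correlated with each other at r = 0.75, which placed Ftl1 63rd in likeness to Fth1 and Fth1 108th in likeness to Ftl1. The sums share libraries, depth and cluster, and the correlations are descriptions.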

How the data were processed

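The libraries were 3′ droplet libraries, per the labels' protocols, and the submitters' processing notes name Cell Ranger 3.1.0 and the build mm10. The authors deposited raw UMI counts per gene and cell with a cluster name and the percent of mitochondrial UMIs per cell. How cells were filtered and doublets treated before deposit is not given in the sources used here, and no doublet caller was run. Control libraries were taken as SD, since tables and labels each hold 2 diets and share HFD. Project numbers in the folder names of the deposited library key were taken as runs, which no label or header states. Counts were summed per library and cluster (at least 3 cells; 10 for the diet fit of cluster 0) and tested with edgeR 4.0.16 (filterByExpr, TMM, robust, diet as sole term) in R 4.3.3, with DESeq2 1.42.0 as an alternative. SE is the log2 fold change divided by the root of F. Chain ratios used a pseudocount of 0.5 and exact permutation tests over libraries (scipy 1.17.1). Cells with over 1% neutrophil, 5% haemoglobin or 1% mast cell UMIs were left out in one alternative. The edgeR fits were also run on simulated counts with a fixed dispersion and, apart from the genes changed, the same mean profile in all libraries. That does not test them under the differing cell mix of these libraries. Members and lists were chosen with earlier results of these data known. Iron genes named are those called, the 3 of lowest p per comparison and the 5 highest in cluster 0 or 2. Depth was 37744 to 349450 UMIs a library, and 95% intervals and floors of 3 counts cover counting error only.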

Additional observations from a re-analysis of the deposited data

Results flagged for a closer look

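Of 24 sets of 4 or more libraries examined for a lone value, 5 had one. The cut-off flags about 1 in 20 sets of normally distributed values, which sparse counts with many libraries at 0 are not. The 5 are therefore not read against that rate. The heavy-chain share of cluster 2 was 60.0% in HFD replicate 1, far from the other 4 libraries (83.3% to 86.0%), and rested on 30 UMIs. Ftl1 in cluster 1 was 6517 CPM in HFD replicate 2, apart from 967 to 1875 CPM elsewhere. Hmox1 in cluster 1 was 645 CPM in SD replicate 3, which is 2 UMIs of 3102. Tfrc was 44.7 CPM in cluster 0 of HFD replicate 1 (10 UMIs), and 64.1 CPM in cluster 2 of SD replicate 1 (5 UMIs). The causes were not tested.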

How the results depend on the processing

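The difference in chain ratio between clusters 2 and 0 kept its direction in all 13 alternatives run (1.57 to 2.63, exact p 0.0625 to 0.125) and was 2.15 to 2.63 with a library left out. Its diet differences kept theirs too, at -0.25 to -0.48 (cluster 0) and -0.004 to -1.84 (cluster 2) with a library left out. With the median cell, that of cluster 0 was -1.17 (exact p = 0.4), and -0.52 (exact p = 0.667) without SD replicate 3, where 2 cells gave the median. With Ftl1-ps1 added to Ftl1 the difference was 2.29. That alternative, the removal of cells with macrophage UMIs and the median cell without SD replicate 3 were chosen after seeing the data.

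Genes called were few and moved with the setting. Over all cells, 5 became 9 (DESeq2), 47 (no filter on low counts), 57 (run, the project number, as a term), 64 (replicate block), 0 without cells of other types and 0 to 54 with a library left out. In cluster 0, 1 became 4 (no filter), 5 (replicate block) and 2 to 26 with a library left out. In cluster 1, 52 became 8 (no filter), 22 (replicate block), 1 without cells of other types and 22 to 99 with a library left out. In cluster 2, 0 became 2 (no filter), 2 (replicate block), 1 (run as a term) and 0 to 4. Members called in cluster 1 went from 0 to 1 under RLE scaling and DESeq2, which was Ftl1.

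Signs turned only for changes that were not called. Fth1 over all cells was 0.157 without the filter and -0.162 to 0.099 with a library left out. Ftl1 in cluster 0 was 0.0824 without the filter, 0.0895 with at least 3 cells per library and -0.176 to 0.137 with a library left out. Fth1 in cluster 1 was -0.73 without cells of other types and -0.27 to 0.84 with a library left out. Ftl1 in cluster 2 was 0.45 with the replicate block and -0.42 to 0.22 with a library left out. The causes were not tested. No label says that replicate numbers pair libraries, and they were not taken to. Over all cells the deviations of same-numbered libraries correlated at 0.28 (replicates 1, which also share a project number) and -0.09 (replicates 2, which do not).

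Depth limits Slc40a1 and Tfrc, which had too few UMIs for any fit, and all values of SD replicate 3, the shallowest library.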
